A study of Mus musculus with 14 samples.

Results

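The genes described here copy DNA and supply its building blocks. They are 44 genes of DNA replication and nucleotide supply, out of 21152 genes measured in 14 libraries. The list was made by name, but with earlier results of these data known. All 44 were in the table, and all 44 were among the 13711 genes whose mean level was high enough to test. LLC1 cells, a mouse line from Lewis lung carcinoma, were grown as tumours in mice, and tumour RNA was sequenced after 16 days of treatment. The groups were the combination of MYCi975 and TMP195 (3 libraries), TMP195 alone at 50 mg/kg (3 libraries), MYCi975 alone at 50 mg/kg (4 libraries) and vehicle, which was DMSO (4 libraries). MYCi975 is a compound that inhibits MYC, a transcription factor of cell growth, and TMP195 blocks the class IIa histone deacetylases. No source used here gives the doses within the combination or the strain, sex and age of the mice. The labels call the material bulk tumour cells, while the extraction protocol names an enriched tumour population. Nothing in the labels says that libraries came from separate animals, so p-values measure the spread between libraries, which may be technical.

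Before a cell enters S phase, the origin recognition complex, Cdc6 and Cdt1 load the MCM ring onto DNA, which licenses an origin. In S phase Cdc45 and the GINS complex join MCM to form the active helicase, DNA polymerase alpha with primase starts each new strand, and replication factor C loads the sliding clamp PCNA for polymerases delta and epsilon. Ribonucleotide reductase, thymidylate synthase and thymidine kinase supply deoxynucleotides. In proliferating cells most of these genes are known to be transcribed at the G1/S boundary under E2F transcription factors, and several have been described as MYC targets.

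The promoters were searched for elements that this control is known to use. RefSeq start sites on GRCm38.p6 gave windows for 36 of the 44 genes, 41 windows in all, and the 250 bases before each start were searched on both strands. Gins1, Gins2, Gins4, Gmnn, Mcm4, Pole, Prim2 and Rfc2 had no entry. An E2F site, searched as TTTCGCGC or TTTGGCGC, was found in 5 of the 41 windows (12.2%), those of Mcm5, Mcm6, Orc1, Pola1 and Rfc3. It was found in 0.654% of 32851 windows over all genes. The E-box CACGTG, the element that MYC and its partner MAX are known to bind, was in 6 windows (14.6%), those of Chaf1a, Fen1, Pola2, Rfc1, Rpa1 and Tyms, against 6.02% of all windows. CCAAT, the core of the NF-Y element, was in 24 windows (58.5%), against 33.9% of all. A match describes these letters only and is not evidence that a factor binds there. The 5 stretches with an E2F site are shown because they span 3 steps of the pathway (licensing, clamp loading and priming), each 80 bases read 5′ to 3′ on the strand of the gene with the matches in capitals.
Mcm6, chr1:128359744-128359823, minus strand: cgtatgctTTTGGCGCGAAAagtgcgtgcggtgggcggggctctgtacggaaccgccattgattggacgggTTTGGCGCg
Mcm5, chr8:75109348-75109427, plus strand: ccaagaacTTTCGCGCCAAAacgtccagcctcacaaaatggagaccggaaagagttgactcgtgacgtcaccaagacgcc
Orc1, chr4:108579374-108579453, plus strand: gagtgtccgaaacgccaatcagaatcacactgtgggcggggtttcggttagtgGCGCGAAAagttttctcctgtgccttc
Rfc3, chr5:151651209-151651288, minus strand: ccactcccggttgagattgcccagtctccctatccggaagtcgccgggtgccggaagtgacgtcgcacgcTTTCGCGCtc
Pola1, chrX:93632222-93632301, minus strand: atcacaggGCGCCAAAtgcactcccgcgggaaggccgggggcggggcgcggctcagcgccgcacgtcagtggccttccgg
In Mcm6 and Mcm5 the first run of capitals holds 2 matches that overlap, 1 on each strand. A pair with the E-box is shown because a MYC inhibitor was given, again 80 bases each with the match in capitals.
Chaf1a, chr17:56040309-56040388, plus strand: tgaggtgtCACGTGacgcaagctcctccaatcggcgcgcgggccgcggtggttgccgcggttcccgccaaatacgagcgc
Tyms, chr5:30073626-30073705, minus strand: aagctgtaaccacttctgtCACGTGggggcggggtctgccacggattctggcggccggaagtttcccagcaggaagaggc

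The deposited values are on a log2 scale after a variance-stabilising transformation, with a floor of 4.047 for genes without reads. They are not per length, so levels are compared between libraries and not between genes. The depth of the libraries is unknown. The genes at the floor numbered 2954 in MYCi975 replicate 2, the most of any library, and 880 in vehicle replicate 1, the fewest. MYCi975 replicate 2 stood apart: a 5-gene leukocyte list (Ptprc, Cd52, Coro1a, Laptm5 and Cd53, all 5 tested and none at the floor) was 1.18 above its mean over all libraries there, against -0.82 to 0.70 in the other 13. A list of 8 dissociation and immediate early genes was also highest there, at 1.22. The leukocyte list was lowest in the combination group, from -0.82 to -0.37, against -0.19 to 0.70 with TMP195, -0.31 to 1.18 with MYCi975 and -0.39 to 0.25 with vehicle. In bulk tumour RNA, fewer cells of a type and less RNA per cell cannot be told apart. Epithelial markers were sparse: Krt8, Krt18 and Cdh1 were tested, while Epcam and Krt19 were too low.

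The means of the 44 genes ran from -0.12 to 0.16 among the MYCi975 libraries, the group with the widest range. The 4 group means ran from -0.094 to 0.060. Means of 3 or 4 libraries spread less than single libraries by construction, so these 2 ranges are not alike. After centring each gene on its mean over the 14 libraries, the 44 genes averaged 0.053, 0.022 and -0.011 in the combination libraries. They averaged -0.032, -0.18 and -0.072 in the TMP195 libraries, and -0.050, -0.12, 0.16 and -0.0022 in the MYCi975 libraries. Vehicle libraries averaged 0.091, -0.018, 0.17 and -0.0058. By this mean all 3 TMP195 libraries lay below all 4 vehicle libraries and all 3 combination libraries, while MYCi975 spanned both ends. The gap to vehicle replicate 2 was small (-0.032 against -0.018). By the median of the 44 genes TMP195 and vehicle overlapped, with TMP195 replicate 3 at -0.0324 and vehicle replicate 4 at -0.0462. As group means the library means were 0.021 ± 0.032 with the combination (SD, n = 3), -0.094 ± 0.075 with TMP195 (n = 3), -0.0052 ± 0.12 with MYCi975 (n = 4) and 0.060 ± 0.090 with vehicle (n = 4).

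**Figure D1:**
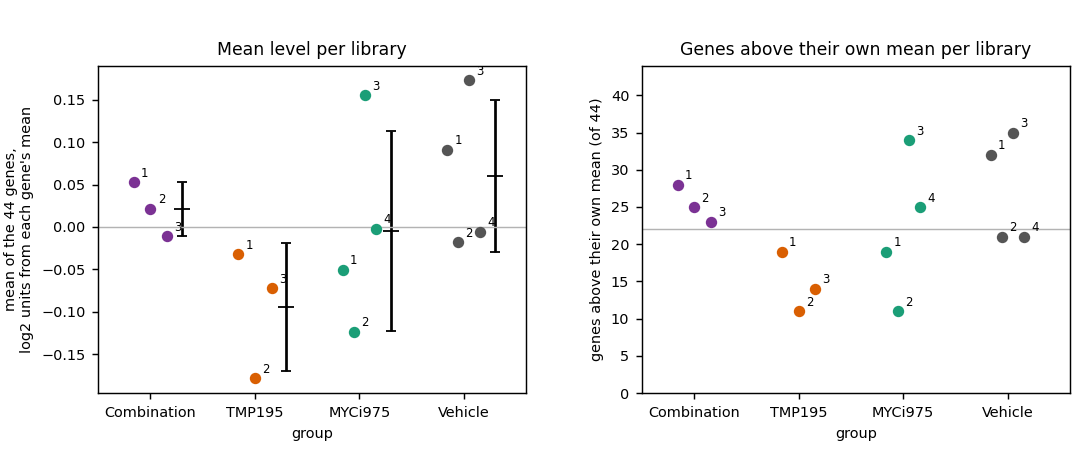
Left, mean of the 44 genes in each library after centring each gene on its mean over 14 libraries (log2 scale), with the group mean and SD in black. Right, number of the 44 genes above their own mean in each library. The TMP195 libraries have 11 to 19 genes above their mean, and MYCi975 libraries run from 11 to 34.

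Counted gene by gene, 28, 25 and 23 of the 44 genes lay above their own mean in the combination libraries, and 19, 11 and 14 in the TMP195 libraries. The MYCi975 libraries had 19, 11, 34 and 25, and the vehicle libraries 32, 21, 35 and 21. Over all tested genes this share was between 48.3% and 50.6% in every library. MYCi975 replicate 2 held the lowest value of 12 of the 44 genes but also the highest value of 5. TMP195 replicate 2 held the lowest value of 11, whereas MYCi975 replicate 3 and vehicle replicate 3 each held the highest value of 8. Skeletal muscle markers (6 genes, of which 3 were tested) were also highest in vehicle replicate 3, at 1.99, and the part of tissue makeup in these library differences was not tested. The spread of single genes within groups ran from an SD of 0.11 to 0.38, with a median of 0.21, against a median of 0.24 over all tested genes.

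**Figure D2:**
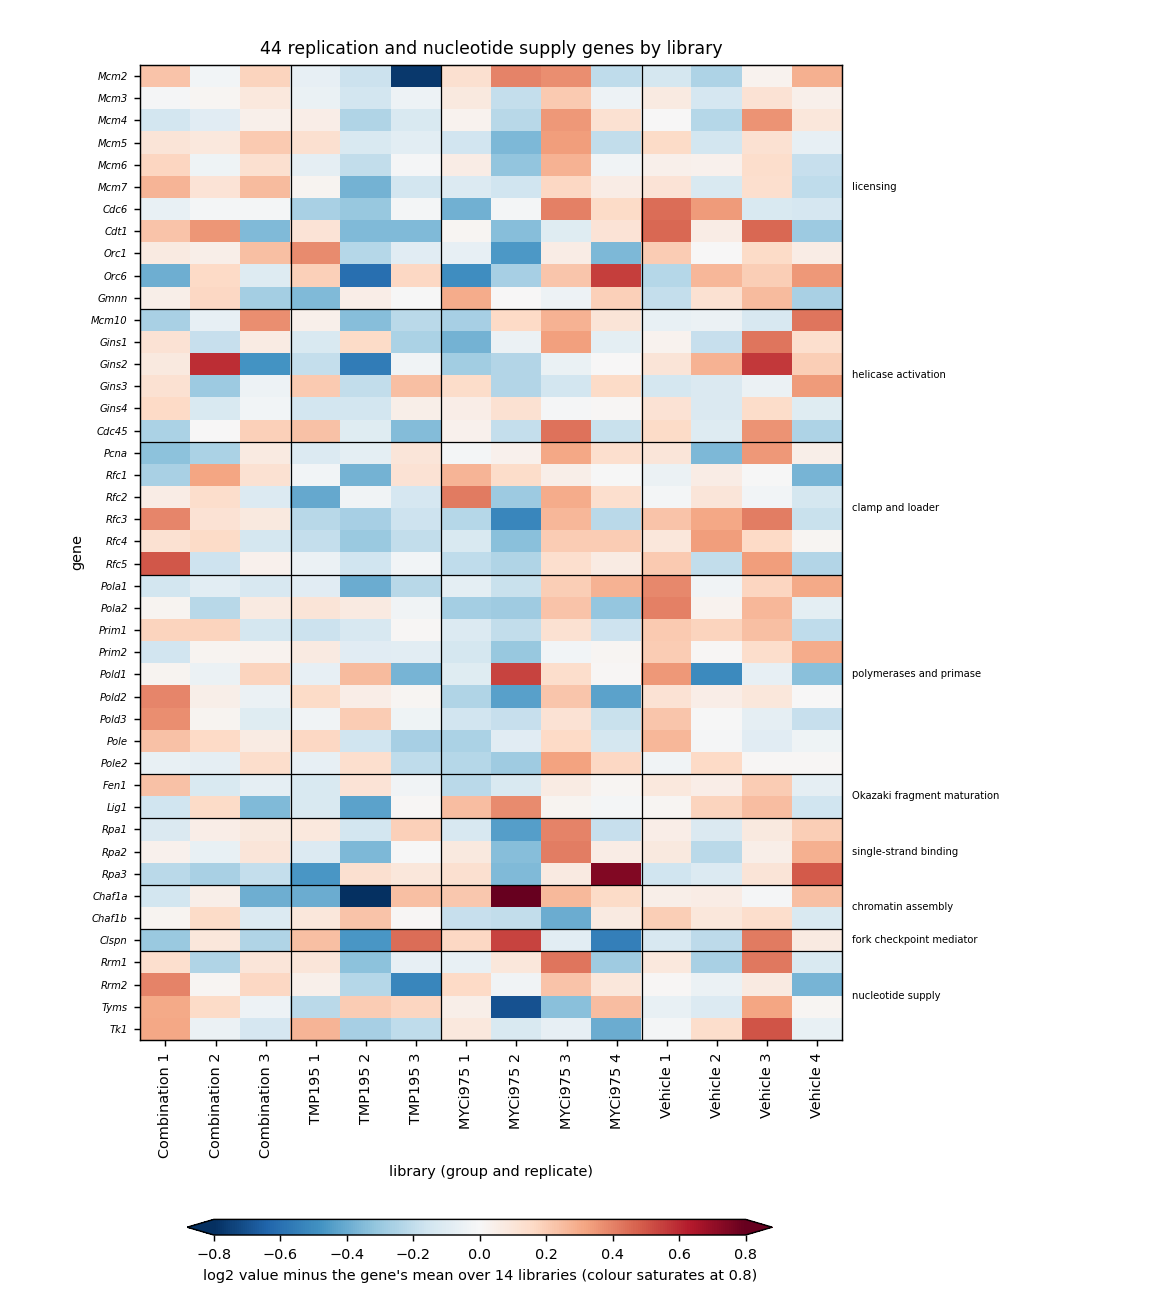
Each row is 1 of the 44 genes, grouped by role, and each column is 1 library; colour gives the log2 value minus the mean of that gene over 14 libraries and saturates at 0.8. Columns such as MYCi975 replicate 3 and vehicle replicate 3 are high across most roles, and MYCi975 replicate 2 and TMP195 replicate 2 are low across most roles.

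No gene passed the threshold in any comparison. With limma, a linear model with a moderated variance, and Benjamini-Hochberg adjustment over all 13711 genes, 0 genes and 0 of the 44 had an adjusted p under 0.05 in each of the 6 comparisons (0.0% called). The moderated F test over all 4 groups called 0 genes. At an unadjusted p under 0.05 it gave 476 of the 13711 genes and 2 of the 44, Pola1 and Chaf1a. Every difference below is therefore a value that did not pass the test, given with its error.

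Licensing is the largest role, with 11 genes. With TMP195 all 11 averaged lower than with vehicle, by 0.041 to 0.37 on the log2 scale, and 0 passed the test. Mcm2, a subunit of the MCM ring, was 9.32, 9.06 and 9.26 in combination libraries, 9.02, 8.92 and 8.31 in TMP195 libraries, 9.22, 9.49, 9.46 and 8.89 in MYCi975 libraries and 8.95, 8.84, 9.12 and 9.37 in vehicle libraries. The low value belonged to TMP195 replicate 3, and each combination library was above each TMP195 library. The difference of the combination from TMP195 was 0.46 (SE 0.20, limma adjusted p = 0.9985), and 0.25 without TMP195 replicate 3. Mcm7, another ring subunit, was 9.50, 9.34 and 9.48 with the combination, 9.25, 8.85 and 9.08 with TMP195, 9.12, 9.07, 9.39 and 9.29 with MYCi975 and 9.34, 9.11, 9.36 and 9.03 with vehicle. Again no combination library overlapped TMP195, and the difference was 0.38 (95% interval 0.074 to 0.68, unadjusted p = 0.018, limma adjusted p = 0.9985).

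Among the other loading factors, Cdt1, which brings MCM to origins, averaged 7.47 ± 0.38 with the combination, 7.20 ± 0.27 with TMP195 (SD, n = 3 each), 7.32 ± 0.19 with MYCi975 and 7.57 ± 0.36 with vehicle (n = 4 each). Cdc6, its partner in loading, averaged 6.79 with the combination, 6.63 with TMP195, 6.86 with MYCi975 and 6.95 with vehicle, where it ran from 6.69 to 7.27. Orc1, a subunit of the origin recognition complex, ran from 5.30 to 5.82 with MYCi975 and from 5.77 to 5.96 with vehicle. Only MYCi975 replicate 3 reached into the vehicle range. Gmnn, which encodes the Cdt1 inhibitor geminin, had group means of 5.71 to 5.92, within an SD of at most 0.25. The MCM genes Mcm3, Mcm4, Mcm5 and Mcm6 differed from vehicle by between -0.16 and 0.12 in every treatment.

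Among the helicase activation genes, Gins2, a subunit of the GINS complex, had the smallest F test p. It was 7.30, 7.81 and 6.74 with the combination, 7.03, 6.66 and 7.19 with TMP195, 6.94, 6.99, 7.16 and 7.22 with MYCi975 and 7.32, 7.50, 7.78 and 7.41 with vehicle. All TMP195 and all MYCi975 libraries lay below all vehicle libraries, while the combination libraries reached both above and below them. TMP195 minus vehicle was -0.54 (SE 0.21, unadjusted p = 0.023, limma adjusted p = 0.9996), and MYCi975 minus vehicle was -0.43 (SE 0.20, unadjusted p = 0.048, limma adjusted p = 0.9987). These 2 comparisons share their vehicle libraries. Gins3, of the same complex, was 6.34, 5.93 and 6.18 with the combination, 6.43, 6.02 and 6.46 with TMP195, 6.37, 5.98, 6.07 and 6.37 with MYCi975 and 6.08, 6.10, 6.17 and 6.56 with vehicle. Its groups overlapped fully, and the difference of TMP195 from vehicle (0.074, SE 0.18) turned to -0.0048 without TMP195 replicate 3. The remaining genes of this role, Gins1, Gins4, Cdc45 and Mcm10, differed from vehicle by between -0.22 and 0.031 in every treatment.

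Among the 44 genes the interaction had its smallest p for a clamp loader gene. Rfc3, a subunit of replication factor C, was 6.95, 6.68 and 6.64 with the combination, 6.34, 6.29 and 6.40 with TMP195, 6.34, 6.04, 6.83 and 6.35 with MYCi975 and 6.79, 6.87, 6.97 and 6.39 with vehicle. It was low in every TMP195 library and in MYCi975 libraries other than replicate 3. Vehicle replicate 4 was as low and lay inside the TMP195 range, so these groups overlapped. The combination lay in the vehicle range. TMP195 minus vehicle was -0.41 (SE 0.19), MYCi975 minus vehicle -0.37 (SE 0.17) and combination minus vehicle 0.0032 (SE 0.19). The interaction, the difference of combination from TMP195 less that of MYCi975 from vehicle, was 0.78 (95% interval 0.22 to 1.35, unadjusted p = 0.0099, limma adjusted p = 0.91), so it did not pass. Rfc4, of the same complex, ran from 6.93 to 7.22 with the combination, 6.78 to 6.88 with TMP195, 6.73 to 7.27 with MYCi975 and 7.09 to 7.41 with vehicle. Its TMP195 libraries were below both the combination and the vehicle libraries.

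Pcna, the clamp itself, overlapped between all groups. It was 9.21, 9.29 and 9.61 with the combination, 9.43, 9.46 and 9.64 with TMP195, 9.53, 9.58, 9.85 and 9.68 with MYCi975 and 9.64, 9.18, 9.89 and 9.59 with vehicle. Vehicle alone covered the whole range. The combination was -0.14 (SE 0.17) from TMP195 and -0.29 (SE 0.16) from MYCi975, and the interaction was -0.23 (SE 0.22, limma adjusted p = 0.91). The TMP195 difference was -0.074 without TMP195 replicate 3 and -0.059 without combination replicate 1, and -0.26 without combination replicate 3. The interaction was -0.094 without vehicle replicate 2, and ran from -0.35 without combination replicate 3 to -0.15 without combination replicate 1. Rfc1, Rfc2 and Rfc5 differed from vehicle by between -0.17 and 0.21.

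Among polymerases and primase, Pola1, the catalytic subunit of DNA polymerase alpha, had the smallest p against vehicle. It was 8.69, 8.75 and 8.70 with the combination, 8.74, 8.43 and 8.61 with TMP195, 8.75, 8.66, 9.03 and 9.11 with MYCi975 and 9.22, 8.81, 9.01 and 9.13 with vehicle. Every combination and every TMP195 library was below every vehicle library while MYCi975 reached into both ranges. TMP195 minus vehicle was -0.44 (95% interval -0.74 to -0.15), or 0.735 times vehicle when the log2 difference is converted back to a ratio. Its unadjusted p was 0.0061 and its limma adjusted p was 0.9996. The combination minus vehicle was -0.33 (SE 0.14, unadjusted p = 0.033, limma adjusted p = 0.992), against the same vehicle libraries.

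Of the 9 polymerase and primase genes, Pola1 among them, 8 averaged lower with MYCi975 than with vehicle and 0 passed. Prim2, the large primase subunit, was 7.47, 7.31, 7.59 and 7.63 with MYCi975 and 7.82, 7.62, 7.75 and 7.91 with vehicle. Its ranges touched, with MYCi975 replicate 4 just above vehicle replicate 2, and the difference was -0.28 (SE 0.12, limma adjusted p = 0.9987). Prim2 ran from 7.46 to 7.64 with the combination and 7.52 to 7.68 with TMP195, against 7.62 to 7.91 with vehicle. Pold1, the catalytic subunit of polymerase delta, was the exception, at 6.84, 7.48, 7.08 and 6.95 with MYCi975 and 7.28, 6.43, 6.87 and 6.60 with vehicle. Its highest value was in MYCi975 replicate 2, the groups overlapped, and the difference of 0.29 (SE 0.20) was 0.16 without that library, 0.17 without vehicle replicate 2, 0.45 without vehicle replicate 1 and 0.14 with estimated library weights. Pold1 ran from 6.89 to 7.12 with the combination and 6.57 to 7.19 with TMP195.

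Pold2, the second subunit of polymerase delta, was 7.15, 6.81 and 6.71 with the combination, 6.92, 6.81 and 6.78 with TMP195, 6.52, 6.32, 6.98 and 6.33 with MYCi975 and 6.87, 6.81, 6.85 and 6.76 with vehicle. It was lowest in 3 of the 4 MYCi975 libraries, and the combination differed from MYCi975 by 0.35 (SE 0.17, unadjusted p = 0.054, limma adjusted p = 0.62), or 0.22 without combination replicate 1. Pola2, Prim1, Pold3, Pole and Pole2 differed from vehicle by between -0.31 (Pola2 with MYCi975) and 0.12 (Pole with the combination).

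**Figure D3:**
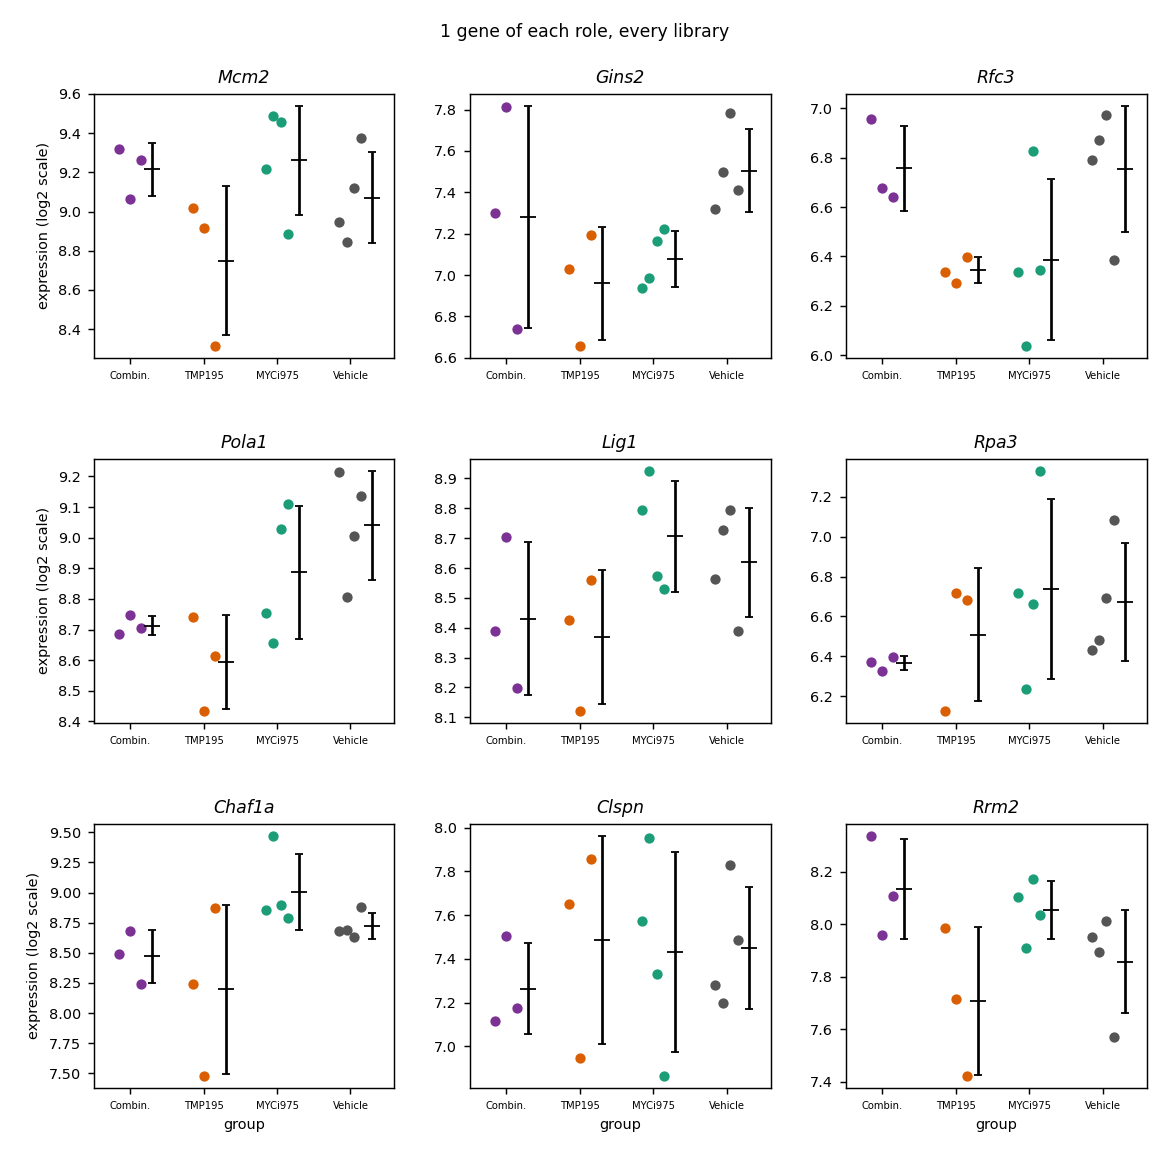
Level on the log2 scale in every library for the gene with the smallest F test p in each of 9 roles, with group mean and SD in black; vertical axes differ between panels and do not start at 0. Pola1 and Rpa3 lie lower in all combination libraries than in all vehicle libraries, and Gins2 lies lower in all TMP195 and all MYCi975 libraries than in vehicle.

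Behind the fork, the genes that join Okazaki fragments and coat single strands held 5 of the 44, and 0 passed the test. Lig1, the ligase that seals the fragments, was 8.39, 8.70 and 8.20 with the combination, 8.43, 8.12 and 8.56 with TMP195, 8.79, 8.93, 8.57 and 8.53 with MYCi975 and 8.56, 8.73, 8.79 and 8.39 with vehicle. Its groups overlapped in each comparison, the combination differing from MYCi975 by -0.28 (SE 0.16), or -0.16 without combination replicate 3. Rpa3, the small subunit of the single-strand binding protein RPA, was 6.37, 6.33 and 6.40 with the combination, 6.13, 6.72 and 6.68 with TMP195, 6.72, 6.23, 6.66 and 7.33 with MYCi975 and 6.43, 6.48, 6.69 and 7.08 with vehicle. The combination libraries lay close together and just under the vehicle libraries, a difference of -0.30 (SE 0.23, limma adjusted p = 0.992), or -0.17 without vehicle replicate 4. From MYCi975 it was -0.37 (SE 0.23), which became -0.17 without MYCi975 replicate 4. With a block on the replicate number the combination was -0.14 from vehicle and -0.20 from MYCi975. Fen1, the flap endonuclease, and Rpa1 and Rpa2 had differences from vehicle between -0.20 and 0.004.

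Chaf1a, the large subunit of the histone chaperone CAF-1, had the widest range of the 44 genes. It was 8.49, 8.68 and 8.24 with the combination, 8.24, 7.48 and 8.87 with TMP195, 8.85, 9.47, 8.90 and 8.79 with MYCi975 and 8.68, 8.69, 8.63 and 8.88 with vehicle. The extremes were TMP195 replicate 2 and MYCi975 replicate 2, and every MYCi975 library was above every combination library. The combination differed from MYCi975 by -0.53 (95% interval -1.06 to 0.0013, unadjusted p = 0.051, limma adjusted p = 0.61), or -0.38 without MYCi975 replicate 2. Chaf1b, another CAF-1 subunit, ran from 5.46 to 5.93 with MYCi975 and 5.73 to 6.05 with vehicle. Clspn encodes claspin, which links stalled forks to the checkpoint kinase Chk1. It was 7.11, 7.50 and 7.17 with the combination, 7.65, 6.95 and 7.86 with TMP195, 7.58, 7.95, 7.33 and 6.86 with MYCi975 and 7.28, 7.20, 7.83 and 7.49 with vehicle. Its MYCi975 libraries spanned the whole range, and the smallest p among its comparisons was 0.43 unadjusted.

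Nucleotide supply rested on 4 genes. Rrm2, the regulated subunit of ribonucleotide reductase, was 8.34, 7.96 and 8.11 with the combination, 7.98, 7.71 and 7.42 with TMP195, 8.10, 7.91, 8.17 and 8.03 with MYCi975 and 7.95, 7.89, 8.01 and 7.57 with vehicle. Low values fell in TMP195 replicate 3 and vehicle replicate 4, and combination replicate 2 lay just under TMP195 replicate 1. The combination differed from TMP195 by 0.43 (95% interval 0.072 to 0.78, unadjusted p = 0.022, limma adjusted p = 0.9985). From vehicle it differed by 0.28 (SE 0.16, limma adjusted p = 0.992), or 0.18 without either combination replicate 1 or vehicle replicate 4. Rrm1, the large subunit, averaged 9.23 with the combination, 9.14 with TMP195, 9.28 with MYCi975 and 9.26 with vehicle. Tyms, thymidylate synthase, ran from 7.05 to 7.39 with the combination, 6.87 to 7.29 with TMP195, 6.39 to 7.34 with MYCi975 and 6.98 to 7.40 with vehicle. Tk1, thymidine kinase, ran from 6.83 to 7.27 with the combination, 6.69 to 7.23 with TMP195, 6.57 to 7.05 with MYCi975 and 6.90 to 7.46 with vehicle. All 4 genes overlapped between treated and vehicle libraries.

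By the mean of the 44 genes, which was not tested, TMP195 was the lowest group. There 37 of the 44 were below vehicle, with a median log2 difference of -0.12 and a range of -0.54 to 0.082. Over all tested genes 49.2% were below vehicle and the median was 0.0036. The median of the 44 was -0.0715 without vehicle replicate 3, which left 33 genes below 0. For 42 of the 44 the 95% interval lay within 1 log2 unit of no difference, as for 13032 of 13711 tested genes. An unadjusted p under 0.05 was found for 4 of the 44 (9.09%), against 381 of all genes (2.78%). Gins2, Rfc4 and Pola1 had no TMP195 library inside the vehicle range, 3 of 44 (6.82%) lower against 1.87% of all genes. Leaving out a library raises this share over all genes as well. The count was 9 of 44 without TMP195 replicate 1 (against 5.1% of all genes) and 7 of 44 without TMP195 replicate 3 (against 7.2%). It was 6 of 44 without vehicle replicate 2 (against 3.46%) and 8 of 44 without vehicle replicate 4 (against 3.56%). Each of the 44 genes makes 2.27%, so these counts are not percentages. In the other direction 0 of the 44 were higher without overlap, against 2.4% of all genes. The skeletal muscle list was also lower in the mean with TMP195, at -1.08 to -0.43 (mean -0.67) against -1.10 to 1.99 with vehicle (mean 0.52), and its part in the result was not tested.

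With MYCi975, 28 of the 44 were lower than with vehicle, with a median of -0.0655 and a range of -0.43 to 0.29, while 48.3% of all genes were lower with a median of 0.0073. All 44 intervals lay within 1 log2 unit, as did those of 13097 of 13711 tested genes. The median of the 44 depended on single libraries: it was -0.154 without MYCi975 replicate 3, -0.0228 without MYCi975 replicate 2 (25 genes lower), -0.0319 without MYCi975 replicate 1, -0.0326 without vehicle replicate 1 and -0.0421 without vehicle replicate 3. It was -0.0359 over the 40 genes left by a stricter filter on low values. An unadjusted p under 0.05 was found for 3 of the 44 (Prim2, Pola2 and Gins2, 6.82%) and for 457 of all genes (3.33%). Without overlap, 1 gene (Gins2, 2.27%) was lower against 0.707% of all genes, and 0 were higher against 1.03%. The lower count was 7 of 44 without MYCi975 replicate 3 (against 2.55% of all genes). It was 3 of 44 without MYCi975 replicate 4 (against 2.17%), vehicle replicate 2 (against 1.35%) or vehicle replicate 4 (against 1.74%). It was 2 of 44 without MYCi975 replicate 1 (against 1.48%). The higher count was 2 of 44 without MYCi975 replicate 2 (against 1.88%). It was 1 of 44 without vehicle replicate 2 (against 1.97%) or vehicle replicate 4 (against 2.16%).

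With the combination, too, 28 of the 44 were lower than with vehicle, with a median of -0.0347 and a range of -0.33 to 0.28, against 50.3% lower and a median of -0.0022 over all genes. All 44 intervals lay within 1 log2 unit, as did those of 12753 of 13711 tested genes. Leaving out any of the 7 libraries moved the median of the 44 by over 1.5 times, and its sign turned without vehicle replicate 3 (0.0082) and without combination replicate 2 (0.0009). It was -0.0845 without vehicle replicate 4 and -0.0827 without combination replicate 1, and between -0.0545 and -0.0138 without each of the others. Only Pola1 had an unadjusted p under 0.05 (2.27% of the 44), against 470 of all genes (3.43%). Without overlap, Pola1 and Rpa3 were lower (4.55%, against 3.27% of all genes) and 0 were higher (against 2.8%). Without combination replicate 2 the lower count was 6 of 44 (against 8.36% of all genes) and the higher count 2 of 44 (against 7.99%). The higher count was also 2 of 44 without vehicle replicate 1 (against 4.97%) or vehicle replicate 3 (against 4.34%). It was 1 of 44 without combination replicate 1 (against 5.13%).

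**Figure D4:**
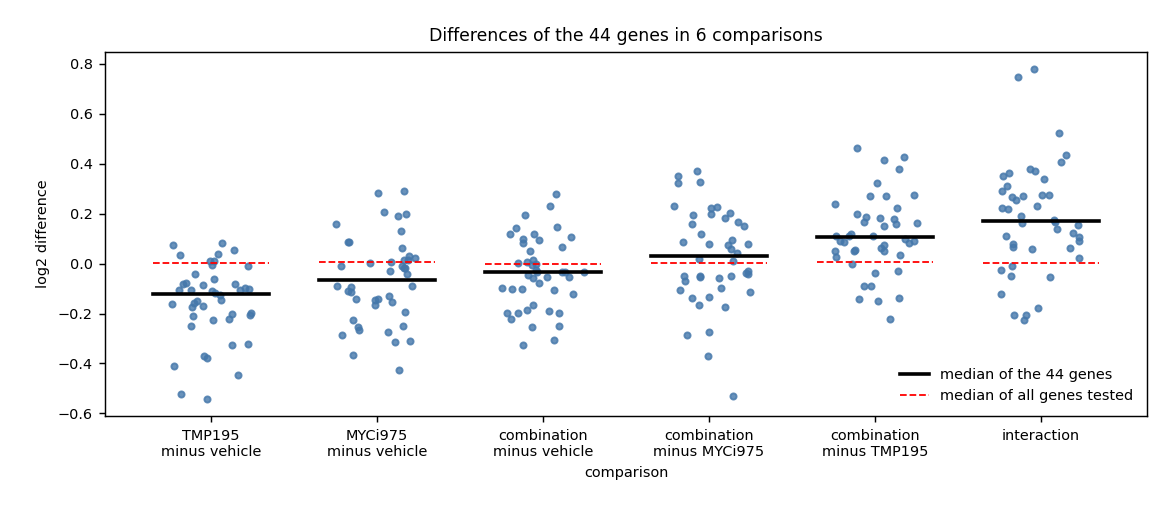
Log2 difference of each of the 44 genes (points) in the 6 comparisons, with the median of the 44 in black and that of all 13711 tested genes as a red dashed line; points are spread sideways for legibility. The median of the 44 runs from -0.12 for TMP195 minus vehicle to 0.17 for the interaction, and no point passed the test.

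Set against TMP195, the combination was higher for 35 of the 44 genes, with a median of 0.10 and a range of -0.22 to 0.46, while 48.9% of all genes were lower and their median was 0.0056. Mcm7, Rrm2 and Mcm2 had an unadjusted p under 0.05 (6.82% of the 44), as did 603 of all genes (4.40%). Mcm2, Mcm3, Mcm7, Rfc3 and Rfc4 were higher without overlap, 5 of 44 (11.4%) against 5.48% of all genes, and 0 were lower against 6.36%. The higher count was 11 of 44 without TMP195 replicate 1 (against 11.6% of all genes) and 10 of 44 without TMP195 replicate 3 (against 10.1%). It was 9 of 44 without combination replicate 2 (against 11.3%) or combination replicate 3 (against 11.6%). Each of the 44 genes makes 2.27%, so these counts are not percentages. The genes below 0 numbered 9, and 14 without TMP195 replicate 2, where the lower count without overlap was 4 of 44 (against 10.5%). That lower count was 1 of 44 without TMP195 replicate 1 (against 12.6%), TMP195 replicate 3 (against 10.5%) or combination replicate 3 (against 13.0%). The leukocyte list also differed between these groups, at -0.82 to -0.37 in combination libraries and -0.19 to 0.70 in TMP195 libraries, and its part in the result was not tested.

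Set against MYCi975, the combination was higher for 24 and lower for 20 of the 44 genes, with a median of 0.0305, against 49.8% lower and a median of 0.0014 over all genes. The median was -0.0015 without MYCi975 replicate 2, 0.0024 without combination replicate 3, 0.0152 without MYCi975 replicate 1, 0.0662 without MYCi975 replicate 4 and 0.113 without MYCi975 replicate 3. With all libraries it was 0.0018 with estimated library weights, 0.014 with the stricter filter on low values, 0.0498 with median centring and 0.0602 with quantile normalisation. None of the 44 had an unadjusted p under 0.05, against 1120 of all genes (8.17%). Chaf1a alone was lower without overlap (2.27%, against 3.97% of all genes), and 0 were higher (against 3.53%). The higher count was 9 of 44 without MYCi975 replicate 3 (against 7.21% of all genes) and 3 of 44 without combination replicate 3 (against 7.95%). It was 2 of 44 without combination replicate 2 (against 8.12%). It was 1 of 44 without combination replicate 1 (against 5.78%) or MYCi975 replicate 4 (against 6.97%). The lower count was 3 of 44 without MYCi975 replicate 2 (against 5.38%). It was 2 of 44 without combination replicate 1 (against 5.65%), replicate 2 (against 8.75%) or replicate 3 (against 9.15%).

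The interaction was above 0 for 35 of the 44 genes, with a median of 0.17, against 49.8% below 0 and a median of 0.0014 over all genes. That median was 0.26 without MYCi975 replicate 3 and 0.14 without MYCi975 replicate 2. Rfc3 and Gins2 had an unadjusted p under 0.05 (4.55% of the 44), against 656 of all genes (4.78%). The interval lay within 1 log2 unit for 41 of the 44 and for 10278 of 13711 tested genes. Combination, single agent and vehicle libraries are shared between these comparisons, so their values are not separate observations.

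Other genes of the cell cycle and nucleotide pathways gave 0 calls as well. From each list the gene with the smallest p in each comparison with vehicle was named, which favours groups without overlap. Of 33 other replication factors, 24 were lower with TMP195, 18 with MYCi975 and 18 with the combination than with vehicle, with medians of -0.14, -0.014 and -0.023. Dbf4, the activator of the origin-firing kinase Cdc7, was 7.96, 7.87 and 7.97 with TMP195 and 8.20, 8.34, 8.17 and 8.45 with vehicle. These 2 groups did not overlap, as for 1.87% of all genes in this direction. The difference was -0.36 (SE 0.18, unadjusted p = 0.065, limma adjusted p = 0.9996). Dbf4 also differed from vehicle by -0.29 (SE 0.17) with MYCi975 and -0.24 (SE 0.18) with the combination. Asf1b, a histone chaperone, differed from vehicle by -0.36 (SE 0.15) with MYCi975, and Mcmbp, which binds MCM subunits, by 0.29 (SE 0.14) with the combination. The Mcmbp difference was 0.17 without combination replicate 3 and 0.19 without vehicle replicate 2.

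Among 32 other nucleotide synthesis genes, 24 were lower with TMP195, 20 with MYCi975 and 18 with the combination. Cad, the enzyme that opens pyrimidine synthesis and a known MYC target, was 9.19, 9.57 and 9.38 with the combination, 9.68, 9.55 and 8.82 with TMP195, 8.86, 7.81, 8.76 and 8.65 with MYCi975 and 8.90, 8.62, 9.10 and 9.06 with vehicle. Every combination library was above every MYCi975 and every vehicle library, as for 3.53% and 2.8% of all genes. The combination overlapped TMP195, with a difference of 0.032 (SE 0.26). TMP195 differed from vehicle by 0.43 (SE 0.24, limma adjusted p = 0.9996). The combination differed from MYCi975 by 0.86 (95% interval 0.34 to 1.38, unadjusted p = 0.0029, limma adjusted p = 0.61) and from vehicle by 0.46 (SE 0.24, limma adjusted p = 0.992). MYCi975 differed from vehicle by -0.40 (SE 0.23, limma adjusted p = 0.9987), or -0.17 without MYCi975 replicate 2 and -0.23 with estimated library weights. Rrm2b, the p53-regulated reductase subunit, was 7.20, 7.14 and 7.93 with TMP195 and 7.08, 6.70, 6.96 and 6.93 with vehicle. These 2 groups too had no overlap, as for 2.4% of all genes in this direction. The difference was 0.51 (SE 0.23, limma adjusted p = 0.9996), or 0.25 without TMP195 replicate 3. Rrm2b also differed from vehicle by 0.20 (SE 0.21) with MYCi975 and 0.32 (SE 0.23) with the combination.

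The checkpoint and G1/S lists held 0 called genes too. Of 28 tested E2F and G1/S regulators (30 listed), 20 were lower with TMP195, 15 with MYCi975 and 12 with the combination. Cdc25a, a phosphatase that promotes S phase entry, was 6.76, 6.40 and 7.0026 with TMP195 and 7.16, 7.04, 7.16 and 7.31 with vehicle, a difference of -0.45 (SE 0.16, unadjusted p = 0.012, limma adjusted p = 0.9996), or -0.29 without TMP195 replicate 2. Cdkn1b, which encodes the cyclin-dependent kinase inhibitor p27, was 8.90, 9.27, 8.51 and 8.86 with MYCi975 and 8.67, 8.14, 8.60 and 8.57 with vehicle. MYCi975 replicate 3 lay inside the vehicle range, and the difference was 0.39 (SE 0.16, unadjusted p = 0.025, limma adjusted p = 0.9987). Rbl2, of the retinoblastoma family, differed from vehicle by 0.22 (SE 0.13) with the combination. Of 13 replication checkpoint genes, 8 were lower with TMP195, 10 with MYCi975 and 5 with the combination. Chek1, which encodes the checkpoint kinase Chk1, was 6.17, 5.39 and 6.39 with TMP195 and 6.75, 6.85, 6.62 and 7.0027 with vehicle. TMP195 libraries lay wholly below vehicle for both Cdc25a and Chek1, as for 1.87% of all genes. Chek1 differed by -0.82 (SE 0.30, unadjusted p = 0.015, limma adjusted p = 0.9996), or -0.52 without TMP195 replicate 2. Chek1 also differed from vehicle by -0.35 (SE 0.28) with MYCi975, where replicate 2 was at 5.53, and by -0.14 (SE 0.30) with the combination. Atrip, the partner of the checkpoint kinase ATR, differed from vehicle by -0.26 (SE 0.16) with MYCi975. Wee1, which restrains entry into mitosis, was 7.50, 7.56 and 7.34 with the combination and 6.95, 7.21, 7.14 and 6.98 with vehicle, a difference of 0.40 (SE 0.15, limma adjusted p = 0.992).

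Of 18 genes of G2 and mitosis, 16 were lower with TMP195, 15 with MYCi975 and 12 with the combination than with vehicle. Bub1, a spindle checkpoint kinase, differed from vehicle by -0.34 (SE 0.13) with MYCi975, Plk1, a mitotic kinase, by -0.30 (SE 0.17) with TMP195, and Aurkb, another mitotic kinase, by 0.29 (SE 0.16) with the combination. Mki67, the gene of the proliferation marker Ki-67, averaged 11.17 ± 0.13 with the combination, 11.02 ± 0.20 with TMP195 (SD, n = 3 each), 11.04 ± 0.17 with MYCi975 and 11.10 ± 0.16 with vehicle (n = 4 each). Myc, whose protein MYCi975 targets, averaged 9.07 ± 0.075 with the combination, 9.04 ± 0.098 with TMP195, 9.13 ± 0.26 with MYCi975 and 8.97 ± 0.25 with vehicle. For both genes each group overlapped every other, and their differences from vehicle were at most 0.16 in size.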

How the data were processed

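The authors deposited a table of variance-stabilised values on a log2 scale for 21152 genes in 14 libraries, per the file headers and the submitters' processing notes, which name Salmon (no version) and hg38. That build is human while the row IDs are mouse Ensembl IDs, so the build is not settled and no coordinates come from the table. Of these IDs, 20264 (95.8%) matched a mouse symbol. Libraries were made with a stranded total RNA kit, per the labels' protocols. Whole reads could not be recovered, so no count model was used and depth is unknown.

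Genes with a mean over 1 log2 unit above the floor (13711) entered a limma 3.58.1 fit in R 4.3.3, with 1 mean for each of 4 groups, an intensity trend, 10 residual degrees of freedom, two-sided tests and Benjamini-Hochberg adjustment over all genes tested (threshold 0.05). The script was tested on simulated data. The 44 genes, their 9 roles, the other lists and the naming rule (the smallest F test p of each role, and the smallest p in each direction of each comparison) were chosen with earlier results of these data known. Genes from the other lists were named by the smallest p in each comparison with vehicle. For TMP195 and vehicle, deviations from the group means correlated over 0.1 in all 3 same-numbered pairs (0.11, 0.17 and 0.21). TMP195 replicate 1 correlated as much with vehicle replicate 2 (0.107) as with vehicle replicate 1 (0.1066). A pairing by number is taken from the data, since the labels give only the number. A block on the replicate number changed no call, but 0 genes were called without it, so this does not show whether pairing matters. It did move single values, as for Rpa3, where TMP195 minus vehicle went from -0.16 to 0.004. Alternatives were other filters, scalings, moderation, library weights, the groups compared alone, a replicate block and leaving out each library. Promoter windows came from RefSeq.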

Additional observations from a re-analysis of the deposited data

Results flagged for a closer look

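In groups of 4 libraries, 5 of 90 tests of the 44 genes and list values found 1 library far from the other 3, where chance gives about 1 in 20. With MYCi975, replicate 3 was high for Pola2, the accessory subunit of polymerase alpha, at 8.54 against 8.002 to 8.039 in the other MYCi975 libraries. The same library was high for Pold3, a polymerase delta subunit, at 7.97 against 7.67 to 7.70. MYCi975 replicate 2 was high for Chaf1a of the CAF-1 histone chaperone, at 9.47 against 8.79 to 8.90, in the library that also had the highest leukocyte list. Among vehicle libraries, replicate 4 was high for the replication initiation factor Mcm10, at 8.01 against 7.46 to 7.54. It was low for the primase gene Prim1, at 6.61 against 6.99 to 7.05.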

How the results depend on the processing

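Across all alternatives 0 genes were called in each comparison. The counts without overlap given next are out of the 44 genes, where each gene makes 2.27%. Counts without overlap moved under scaling: combination above vehicle was 1 with median centring (against 3.06% of all genes) and 2 with quantile normalisation (3.38%), combination above MYCi975 was 1 under both (4.04% and 4.28%), and combination above TMP195 was 8 with quantile normalisation (6.4%), each against 0, 0 and 5; the cause was not tested. Leaving out each library in turn, which gives more genes without overlap by its construction, these counts ran from 3 to 9 for TMP195 below vehicle (3.46% to 7.2% of all genes), 1 to 7 and 0 to 2 for MYCi975 below and above vehicle (1.35% to 2.55% and 1.88% to 2.68%), 2 to 6 and 0 to 2 for the combination below and above vehicle (4.75% to 8.36% and 4.34% to 7.99%), 1 to 3 and 0 to 9 for the combination below and above MYCi975 (5.38% to 9.15% and 5.0% to 8.12%), and 0 to 4 and 6 to 11 for the combination below and above TMP195 (8.91% to 13.0% and 8.72% to 11.6%). Genes lower with the combination than with TMP195 ran from 9 to 14. The Gins3 difference of TMP195 from vehicle ran from -0.0048 to 0.2144. With the replicate block 0 of the 44 genes were called in each comparison, and the median of TMP195 minus vehicle was -0.142. Over all groups, same-numbered libraries correlated from -0.30 to 0.21 (median 0.036, 6 of 19 pairs over 0.1). Differently numbered libraries correlated from -0.25 to 0.34 (median -0.00365, 14 of 54 pairs over 0.1). Of the 14 libraries, 6 correlated best with their own number. Whether the numbers pair libraries, in TMP195 and vehicle or elsewhere, is therefore not settled.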
